A study of Mus musculus with 104 samples.

Results

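The regions described here are the 250 kb bins of mouse chromosomes 7, 12 and 15 that lie more than 5 Mb from the DNA break made on that chromosome. They number 1388 of the 10567 bins of that size on chromosomes 1 to 19 and X: chromosome 7 had 570, chromosome 12 had 445 and chromosome 15 had 373. Junctions were mapped by HTGTS, a method in which a break at a known bait site joins to breaks elsewhere and the joined DNA is amplified from the bait and sequenced. Each bin was therefore seen from a bait on its own chromosome and from the other 2 baits, which lie on other chromosomes. In mm9 coordinates the breaks lay at 80.45 Mb of chromosome 7, 13.00 Mb of chromosome 12 and 86.85 Mb of chromosome 15. In total, 1325 of the bins held at least 1 junction, 76810 from the bait on the same chromosome and 38945 from the baits elsewhere.

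The groups were neural progenitor cells (NPC) treated with APH, NPC treated with DMSO, embryonic stem cells (ESC) treated with APH and ESC treated with DMSO. The NPC were derived in culture from the ESC, and the study asked whether either cell type forms recurrent break clusters under replication stress. APH is aphidicolin, an inhibitor of the replicative DNA polymerases, and DMSO is its solvent. All cells, those under DMSO included, were Xrcc4-/- p53-/- on a mixed C57BL6 and 129SVE strain background and came from 2 lines. The 104 experiments had been combined into 24 pools before deposit, so that every combination of bait, line, treatment and cell type had 1 pool. The labels do not say whether pools came from separate cultures, so the spread between pools may be partly technical. Junction tables hold no expression values, so the cell types were taken from the labels. On the 17 chromosomes without a bait, pools held 12379 to 70208 junctions in NPC under APH, 9678 to 46879 in NPC under DMSO, 4292 to 8110 in ESC under APH and 3343 to 10091 in ESC under DMSO. These junctions served as the measure of depth, and no single bin held more than 1.82% of them in any pool.

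A broken end is usually rejoined to its partner, and in a smaller share of cases to another break. Ends on the same chromosome tend to lie closer together in the nucleus than ends on different chromosomes, and contact falls with distance along the chromosome. XRCC4 is a partner of DNA ligase IV in classical end joining. Without it ends persist, and other end-joining routes that often use short stretches of matching bases can join them. p53 loss lets such cells survive. Recurrent break clusters are regions, many within long neural genes, where breaks recur in neural progenitors under replication stress.

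The reads below are examples of such junctions. Only reads in which bait and prey matched over a few bases were eligible, so joins with inserted bases or without a match are not shown. Each starts in the bait, in lower case, and continues into the distant partner, the prey, in capitals. The first bases in capitals matched both. They are deposited reads of NPC line 1 under APH, printed 5′ to 3′, and come from bins whose values are given further on. The first pair joins the chromosome 7 bait to the bin from 98.5 Mb in either orientation: its prey align to chr7:98657725-98657808 on the minus strand, running toward the break, and to chr7:98679289-98679357 on the plus strand, running away from it. The chromosome 12 read joins prey at chr12:35108864-35108907, minus strand, and the chromosome 15 read prey at chr15:10478328-10478409, plus strand, both running toward the break. The chromosome 15 prey lies in a narrow stretch dense in junctions that is described further on.
chromosome 7, toward the break: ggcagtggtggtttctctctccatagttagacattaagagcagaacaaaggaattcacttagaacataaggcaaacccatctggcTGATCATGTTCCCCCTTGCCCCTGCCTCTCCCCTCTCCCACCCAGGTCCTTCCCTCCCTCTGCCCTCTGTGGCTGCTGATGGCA
chromosome 7, away from the break: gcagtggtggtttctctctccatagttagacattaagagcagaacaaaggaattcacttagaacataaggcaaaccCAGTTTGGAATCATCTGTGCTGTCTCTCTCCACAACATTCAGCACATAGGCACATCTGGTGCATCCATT
chromosome 12, toward the break: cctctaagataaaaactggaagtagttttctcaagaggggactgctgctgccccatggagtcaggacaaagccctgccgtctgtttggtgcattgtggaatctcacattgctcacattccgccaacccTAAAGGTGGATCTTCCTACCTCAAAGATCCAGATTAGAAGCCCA
chromosome 15, toward the break: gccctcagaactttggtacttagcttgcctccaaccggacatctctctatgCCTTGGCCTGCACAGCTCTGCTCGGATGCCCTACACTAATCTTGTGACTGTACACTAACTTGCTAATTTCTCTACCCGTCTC
The bait and prey matched over 1 base in the first of these reads, 2 in the second, 1 in the third and 2 in the fourth. The prey began 18.2 Mb from the break in both chromosome 7 reads, 22.1 Mb in the chromosome 12 read and 76.4 Mb in the chromosome 15 read.

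Regions far from the break received 2.996 to 6.96 times as many junctions from the bait on their own chromosome than from the baits elsewhere, after scaling to the junctions on the 17 other chromosomes. In each of the 24 combinations of cell type, treatment, line and chromosome, the pool of the chromosome's own bait lay above both pools of the other baits. The own bait of chromosome 7 gave 310 and 356 junctions per 1000 elsewhere in NPC under APH (lines 1 and 2), 240 and 225 in NPC under DMSO, 323 and 344 in ESC under APH, and 304 and 324 in ESC under DMSO. The other baits gave 48.2 to 54.2, 53.3 to 57.5, 59.0 to 65.2 and 56.4 to 73.2 per 1000 there, in the same order of conditions. On chromosome 12 the own bait gave 146 to 222 per 1000 over its 8 pools, and on chromosome 15 it gave 126 to 177. The ranges of own and other baits did not overlap on any of these chromosomes, as the plot of rates by pool shows. The 2 other baits differed from each other by a median of 0.13 and at most 0.27 on the log2 scale.

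**Figure D1:**
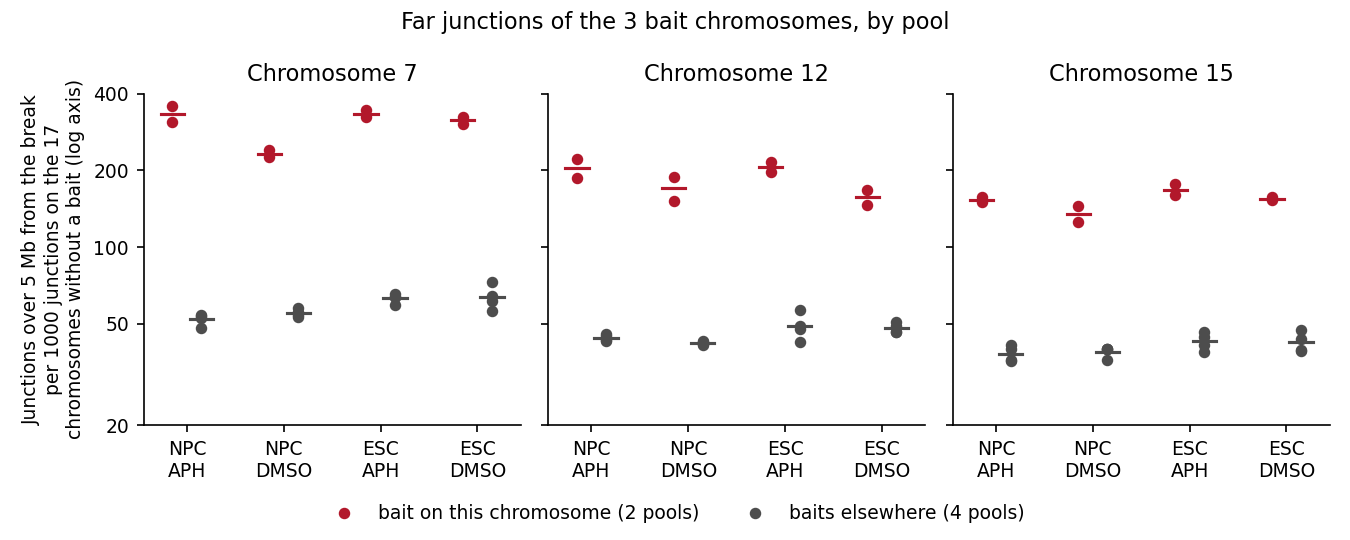
Junctions more than 5 Mb from the break, per 1000 junctions on the 17 chromosomes without a bait (log axis), for each pool, with bars at the means; red points are pools whose bait lies on the chromosome, grey points pools of the baits elsewhere. On chromosome 7 the own bait gave 225 to 356 per 1000, above every pool of the other baits, which gave 48.2 to 73.2.

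The log2 ratio of own to other baits averaged 2.29 ± 0.33 in NPC under APH, 1.96 ± 0.18 in NPC under DMSO, 2.15 ± 0.21 in ESC under APH and 1.95 ± 0.30 in ESC under DMSO (SD, n = 6 line and bait combinations each). It was above 0 in 6 of 6 combinations in each condition (exact sign-flip permutation test, two-sided, p = 0.0312, adjusted over the 4 conditions 0.0312, the smallest p that 6 values can give). By chromosome it averaged 2.36 ± 0.25 on chromosome 7, 2.00 ± 0.24 on chromosome 12 and 1.91 ± 0.12 on chromosome 15 (SD, n = 8 each). All 8 of 8 values were positive on each chromosome (exact permutation test, p = 0.0078, adjusted 0.0078). The pools of 1 bait served as the own bait for 1 chromosome and as another bait for the others, so these values share pools. The 8 values of a chromosome also came from only 2 lines, each measured in both cell types and under both treatments. The p values here and below treat such values as independent.

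Averaged over combinations, the excess was greatest next to the excluded zone and tended to shrink with distance, but it was still present more than 60 Mb away. From 5 to 10 Mb the geometric mean fold of own over other baits was 10.1 in NPC under APH, 6.25 in NPC under DMSO, 7.53 in ESC under APH and 5.86 in ESC under DMSO. From 20 to 30 Mb it was 5.76, 4.15, 6.67 and 4.83 in the same conditions. The mean did not fall at every step: in NPC under DMSO it was 4.52 from 30 to 40 Mb. Some single combinations peaked farther out than 10 Mb. On chromosome 12 in ESC line 1 under DMSO, the fold was 3.73 from 5 to 10 Mb and 6.00 from 30 to 40 Mb. From 60 to 80 Mb the geometric mean fold was 3.21 in NPC under APH, 3.32 in NPC under DMSO, 2.89 in ESC under APH and 2.51 in ESC under DMSO. Of the 160 values by combination and distance class, 158 were above 1. The 2 below 1 were ESC values of chromosome 15 in line 2, more than 80 Mb away, and rested on few junctions. The fold was 0.46 under APH, from 6 own-bait and 29 other-bait junctions, and 0.72 under DMSO, from 5 and 22. In line 1 the ESC values there were above 1, from 24 own-bait junctions under APH and 11 under DMSO. On chromosome 12 the ESC folds beyond 80 Mb were 1.97 to 2.76, from 108 to 374 own-bait junctions. Beyond 80 Mb the range was 2.47 to 3.04 in NPC under APH and 2.44 to 4.20 in NPC under DMSO (4 combinations each, since chromosome 7 does not reach that far). The farthest bins lay 77.4 Mb from the break on chromosome 7, 108 Mb on chromosome 12 and 83.8 Mb on chromosome 15.

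**Figure D2:**
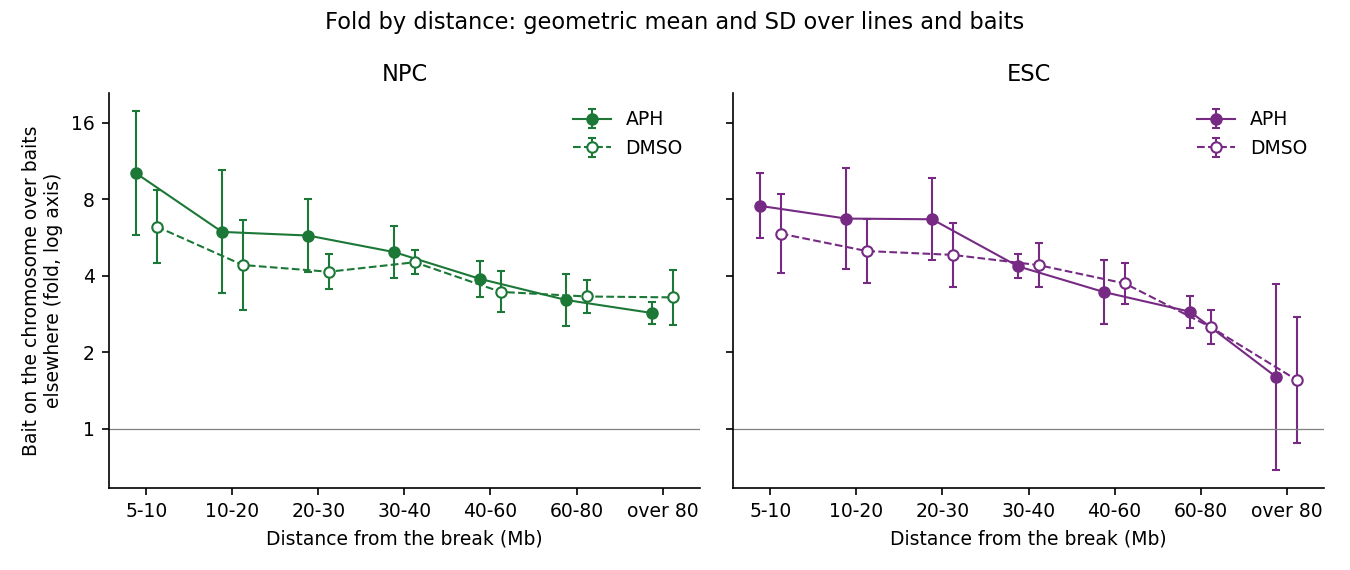
Fold of own over other baits (log axis) by distance from the break in Mb; points are geometric means over the line and bait combinations (6 up to 80 Mb, 4 beyond) and bars 1 SD on the log2 scale, filled for APH and open for DMSO. In NPC under APH the mean fold is 10.1 at 5 to 10 Mb and 3.21 at 60 to 80 Mb.

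The slope of the log2 fold against log2 distance gives the loss for each doubling of distance. It averaged -0.48 ± 0.25 in NPC under APH, -0.25 ± 0.19 in NPC under DMSO, -0.54 ± 0.18 in ESC under APH and -0.41 ± 0.11 in ESC under DMSO (SD, n = 6 each). Slopes were negative in 6 of 6 combinations in all conditions but NPC under DMSO, where 5 of 6 were. The exact permutation test gave adjusted p = 0.0417 for NPC under APH and for both ESC conditions, and 0.0625 for NPC under DMSO. The exception was chromosome 15 in NPC, where slopes were close to flat: -0.16 and -0.16 under APH and -0.10 and 0.07 under DMSO (lines 1 and 2), against -0.31 to -0.71 in ESC. All distance classes had equal weight in these fits. On chromosome 15 the ESC class beyond 80 Mb held only 5 to 24 own-bait junctions per pool. The slope of -0.71, in ESC line 2 under APH, included a log2 fold of -1.13 from 6 such junctions. Slopes on chromosome 7 were -0.64 and -0.66 in NPC under APH, -0.40 and -0.35 in NPC under DMSO, -0.64 and -0.72 in ESC under APH and -0.37 and -0.53 in ESC under DMSO.

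**Figure D3:**
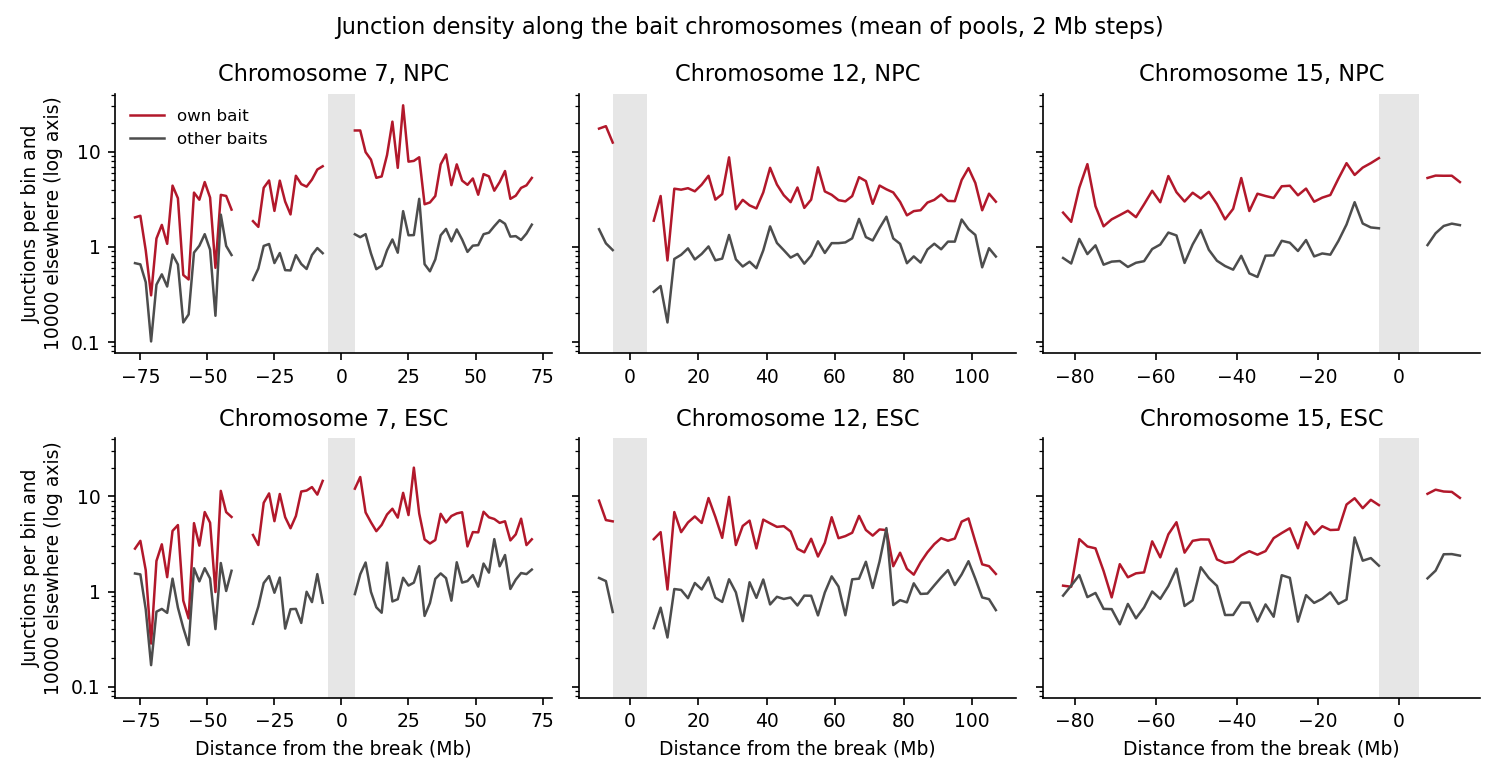
Junctions per 250 kb bin and 10000 junctions elsewhere (log axis) against distance from the break in Mb, negative toward the centromere, in 2 Mb steps; red is the mean of the 4 pools of the own bait, grey that of the 8 pools of the other baits, and the shaded zone of 5 Mb on either side was left out. The red line lies above the grey one along most of each chromosome.

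Bins on either side of the 5 Mb limit had these levels with the own bait, in junctions per 10000 elsewhere. On chromosome 7 the nearest bins described here had 15.6 on the centromeric side and 17.7 on the telomeric side, against 27.9 and 15.1 in the bins just nearer to the break. On chromosome 12 they had 9.68 and 2.92, against 10.5 and 5.25, and on chromosome 15 they had 9.37 and 4.59, against 9.76 and 4.60.

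The excess was seen in nearly every region. With every bin that held a junction tested, 391 of 531 chromosome 7 bins, 298 of 433 chromosome 12 bins and 267 of 361 chromosome 15 bins were higher with their own bait (quasi-likelihood test of edgeR, p under 0.05 after Benjamini-Hochberg adjustment). The same test called 0.68, 0.249 and 0.465% of the 8822 bins of the 17 other chromosomes higher with baits 7, 12 and 15. The fold change was positive in 520 of 531, 432 of 433 and 360 of 361 bins, with median log2 fold changes of 2.12, 1.88 and 1.89, against -0.02, 0.05 and 0.03 for the bins elsewhere. Among the bins with at least 20 junctions from the other baits, a choice that the own bait's pools do not enter, 380 of 384 on chromosome 7, 332 of 335 on chromosome 12 and 139 of 140 on chromosome 15 were higher with the own bait. Their median folds were 4.58, 3.59 and 3.46. The lowest fold, 0.23, was at 12.25 Mb on chromosome 7, and the highest, 59.3, at 106.5 Mb.

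After a filter on low counts, 251 of the 1388 bins remained (121, 57 and 73 on chromosomes 7, 12 and 15), mostly through their own bait's pools, so their counts do not bear on how general the excess is. Of these, 118, 54 and 70 were higher with the own bait, while 10.1, 3.62 and 14.5% of the 138 remaining bins elsewhere were. None of the 3 chromosomes had a bin lower with its own bait (edgeR, 0 bins; 0 at an unadjusted p under 0.05; 1 chromosome 7 bin with DESeq2 and 0 on the others). Elsewhere 4.35, 17.4 and 8.7% of bins were lower. The 10 fullest bins held 13.2% of the own-bait junctions of chromosome 7, 12.4% of those of chromosome 12 and 11.2% of those of chromosome 15.

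On chromosome 7, the bin with the most junctions was chr7:103750001-104000000, 23.4 Mb from the break. The own bait gave 180 and 155 junctions per 10000 elsewhere in NPC under APH, 44.0 and 24.8 in NPC under DMSO, 39.6 and 20.4 in ESC under APH and 23.9 and 25.3 in ESC under DMSO. The NPC pools under APH stood far above the other 6, and the baits elsewhere gave 0 to 15.3. The log2 fold change of own over other baits was 3.79 ± 0.36 (SE; edgeR adjusted p = 2.78e-23).

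The smallest p on that chromosome belonged to the bin from 106.5 Mb, where ESC were the high group. There the own bait gave 34.9 and 13.3 junctions per 10000 in NPC under APH, 11.001 and 13.0 in NPC under DMSO, 74.6 and 119 in ESC under APH and 111 and 126 in ESC under DMSO. The other baits reached at most 3.06. Own exceeded other baits by 4.89 ± 0.40 on the log2 scale (SE; edgeR adjusted p = 6.02e-32). Nearer the break, the bin from 87.25 Mb averaged 21.2 ± 8.64 per 10000 with the own bait and 1.24 ± 0.98 with the others (SD, n = 8 and 16 pools), and the bin from 74.5 Mb, on the centromeric side, 15.4 ± 8.00 and 0.68 ± 0.80. In both, the lowest own-bait pool lay above the highest of the others.

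On chromosome 12 the bins with the smallest p lay on the short centromeric side, 5.13 to 8.63 Mb from the break. The bin from 5 Mb had 56.1 and 96.9 junctions per 10000 in NPC under APH, 18.5 and 13.4 in NPC under DMSO, 15.5 and 20.5 in ESC under APH and 2.63 and 8.92 in ESC under DMSO, against 0 to 6.70 with the other baits. All own-bait pools but 1 of ESC under DMSO lay above those, and own exceeded other baits by 4.02 ± 0.44 on the log2 scale (SE; edgeR adjusted p = 4.14e-17). The bins from 4.25, 6.25 and 7.75 Mb had log2 fold changes of 3.83, 3.85 and 3.97. On chromosome 15 the bins from 94.5, 94 and 81 Mb, all within 8 Mb of the break, had 2.95, 3.24 and 3.05. The chromosome's fullest bin, from 10.25 Mb, lay 76.5 Mb away and is described with the narrow stretches below.

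The 2 sides of each break were used differently by NPC and ESC. On chromosome 7, the telomeric side held 74.3 and 72.5% of far own-bait junctions in NPC under APH and 68.5 and 65.3% in NPC under DMSO (lines 1 and 2), against 55.8 and 47.4% in ESC under APH and 49.8 and 54.7% in ESC under DMSO. NPC were higher in 4 of 4 pairs of line and treatment, by a mean of 18.2 ± 5.91 percentage points (SD), and the groups did not overlap. On chromosome 12 the telomeric side held 77.0 to 89.3% in NPC and 90.7 to 93.6% in ESC, and NPC were lower in 4 of 4 pairs, by -10.1 ± 5.99 points. On chromosome 15 it held 15.2 to 20.7% in NPC and 29.2 to 30.4% in ESC, lower in NPC in 4 of 4 pairs by -12.5 ± 2.82 points. The bait of chromosome 7 aligned to the minus strand, and so lay on the telomeric side of its cut. The baits of chromosomes 12 and 15 aligned to the plus strand, on the centromeric side. On each chromosome the NPC share was thus the larger on the bait's own side of the cut. Whether the bait's direction plays a part was not tested. These shares need no scaling between pools. They were computed after the side values had been seen and are given without a test, since 4 pairs cannot give p below 0.125.

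With the other baits the mean difference of the same shares was smaller on each chromosome. The mean difference, NPC minus ESC, was 4.21 ± 4.36 points on chromosome 7 (7 of 8 pairs higher), -0.84 ± 1.29 on chromosome 12 (5 of 8 lower) and -4.33 ± 4.73 on chromosome 15 (5 of 8 lower; SD). The direction of the mean was the same as with the own bait on each chromosome. On chromosome 15 the 2 other baits were unlike: with bait 7 the share was lower in NPC in 4 of 4 pairs, by -4.20, -8.83, -10.8 and -5.74 points, and the third of these, line 1 under DMSO, was larger than the own-bait difference of -8.48. With bait 12 the differences were 1.25, -7.64, 1.04 and 0.31 points.

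**Figure D4:**
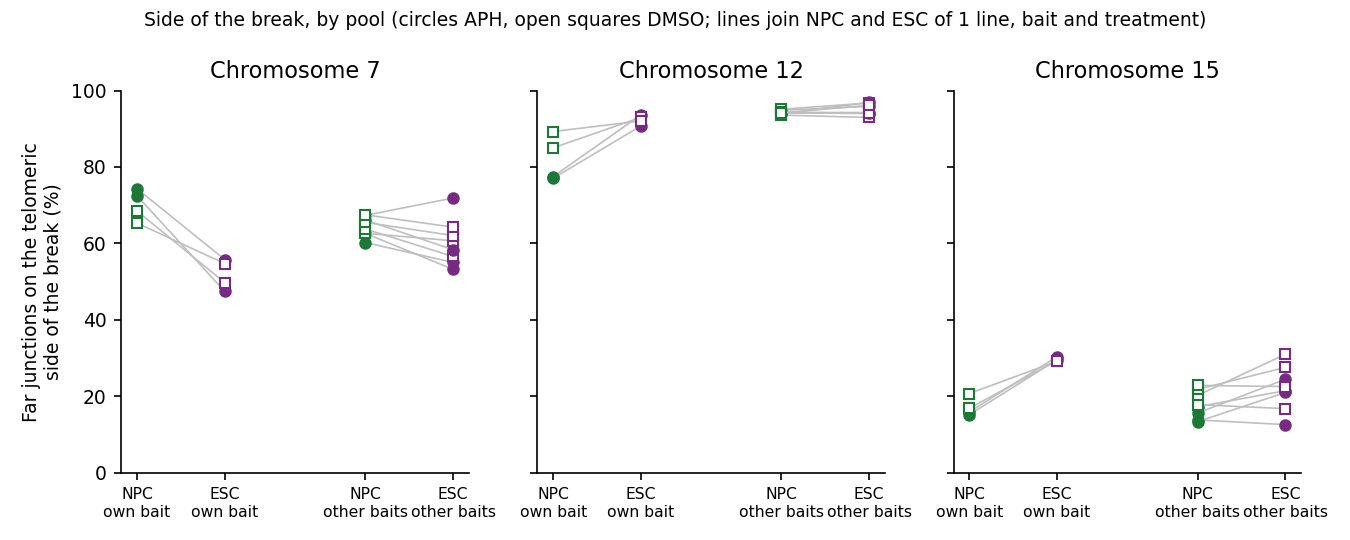
Share of junctions more than 5 Mb from the break that lie on its telomeric side (%), in each pool of NPC (green) and ESC (purple), for the own bait and the other baits; circles are APH, open squares DMSO, and lines join pools of 1 line, bait and treatment. With the own bait NPC lie above ESC on chromosome 7 (65.3 to 74.3% against 47.4 to 55.8%) and below them on chromosomes 12 and 15.

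By rate, the side that NPC used less on chromosome 7 was the centromeric one, with 79.7 and 98.0 junctions per 1000 elsewhere in NPC under APH and 75.6 and 78.0 in NPC under DMSO, against 143 and 181 in ESC under APH and 153 and 147 in ESC under DMSO. The mean log2 difference, NPC minus ESC, was -0.91 ± 0.07 (SD, n = 4 pairs), and all 4 were lower in NPC. On chromosome 15 the short telomeric side had 23.8 to 26.1 per 1000 in NPC and 44.8 to 53.8 in ESC, a mean log2 difference of -0.96 ± 0.16, lower in 4 of 4. On chromosome 12 the short centromeric side had 42.9 and 49.9 in NPC under APH and 22.7 and 20.3 in NPC under DMSO, against 18.3 and 13.7 in ESC under APH and 10.3 and 13.4 in ESC under DMSO, a mean log2 difference of 1.21 ± 0.52, higher in 4 of 4. With the other baits, rates on the centromeric side of chromosome 7 were also lower in NPC, by -0.40 ± 0.16 with bait 12 and -0.37 ± 0.23 with bait 15 (4 of 4 each), and on the telomeric side of chromosome 15 the difference was -0.65 ± 0.19 with bait 7 (4 of 4 lower) and -0.21 ± 0.45 with bait 12 (2 of 4 lower). On the centromeric side of chromosome 12 it was 0.10 ± 0.33 with bait 7 and 0.13 ± 0.57 with bait 15. All these rates rest on the scaling to the 17 other chromosomes. TMM normalization moved the median of all tested bins, NPC over ESC, by 1.31 in the pools of bait 7 and 1.17 in those of bait 15, more than the differences of -0.91 and -0.96 and in the opposite direction, so the direction of these rates holds only under the scaling used. The remaining sides had mean differences of 0.22 ± 0.39 (chromosome 7, telomeric), -0.13 ± 0.19 (chromosome 12, telomeric) and 0.07 ± 0.17 (chromosome 15, centromeric).

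In NPC under APH the highest folds of own over other baits lay within 20 Mb of the break, on the centromeric side of chromosome 12 and the telomeric side of chromosome 7. In NPC under APH the 5 to 10 Mb zone on the centromeric side of the chromosome 12 break was 18.3 times as dense as with the other baits, against 8.92 in NPC under DMSO, 6.80 in ESC under APH and 4.90 in ESC under DMSO. On the telomeric side of the chromosome 7 break, the zone from 10 to 20 Mb had a fold of 15.9 in NPC under APH, 7.18 in NPC under DMSO, 7.34 in ESC under APH and 4.20 in ESC under DMSO. On its centromeric side the same zone had 7.34 in NPC under APH, 4.98 in NPC under DMSO, 15.1 in ESC under APH and 10.9 in ESC under DMSO. The order of the cell types was thus opposite on the 2 sides of the chromosome 7 break in that zone.

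APH was accompanied by a higher ratio of own to other baits in both cell types, by a small margin. The log2 ratio was higher under APH than DMSO in 6 of 6 NPC combinations, by 0.34 ± 0.25, and in 6 of 6 ESC combinations, by 0.20 ± 0.19 (SD). The exact permutation test gave p = 0.0312 for each, and 0.0781 adjusted over 5 comparisons, so neither passed at 0.05. The single values ran from 0.06 to 0.77 in NPC and from 0.04 to 0.55 in ESC. The APH effects of NPC and ESC differed by 0.14 ± 0.38 (exact test, p = 0.5). NPC minus ESC was 0.14 ± 0.17 under APH (exact test, p = 0.125) and 0.00 ± 0.28 under DMSO (p = 0.969). Slopes with distance were steeper under APH in 6 of 6 NPC combinations, by -0.23 ± 0.09, and in 4 of 6 ESC ones, by -0.13 ± 0.17 (exact test, adjusted p = 0.156 and 0.273). The other 3 slope comparisons had adjusted p of 0.273 to 0.688. The comparisons of NPC with ESC moved when 10 Mb around the break was excluded: NPC minus ESC was then 0.28 under APH and 0.33 under DMSO, against 0.07 and 0.16 with 5 Mb excluded (exact test, p = 0.0312 and adjusted 0.0521 for each with 10 Mb).

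Single regions that gained junctions with APH in their own bait's pools were few. On chromosome 7, 6 of 121 bins rose by edgeR (adjusted p under 0.05), and 19 were higher before adjustment, against 14.5% of the bins elsewhere in the same pools. On chromosome 12, 6 of 57 rose, against 10.1% elsewhere, and on chromosome 15, 0 of 73 (4 unadjusted, 0 with DESeq2), against 0% elsewhere. No bin fell on any of them (0 of 121, 57 and 73; 0 unadjusted; 0 with DESeq2), as 0, 0 and 0% of those elsewhere did. These shares do not stand above the background. The median log2 change was 0.29, 0.49 and 0.15 in the members and 0.85, 0.78 and 0.45 elsewhere. The bins elsewhere were the 138, of 8822 with a junction, that passed the filter on low counts. The members passed it mostly through their own bait's pools. The sets were thus selected differently, so neither their shares nor their medians compare like with like.

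These calls needed both lines. Without line 1 and without line 2, 0 bins passed on chromosomes 7 and 12, while without the pools of line 2 with bait 15, left out as an alternative added after the data were seen, 13 and 11 did. DESeq2 gave 0 on chromosome 7 and 3 on chromosome 12.

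The gains on chromosome 12 were seen in both cell types. The bin chr12:35000001-35250000, 22.1 Mb from the break, had 21.1 and 36.4 junctions per 10000 in NPC under APH and 7.93 and 3.10 in NPC under DMSO. In ESC it had 48.1 and 76.0 under APH and 7.89 and 3.96 under DMSO. The lowest APH pool lay above the highest DMSO pool, and APH exceeded DMSO by 2.82 ± 0.59 on the log2 scale (SE; edgeR adjusted p = 0.000367). With the other baits its value was 1.19 ± 0.56 (adjusted p = 0.197). The bins from 38.75 and 42.75 Mb rose by 3.03 ± 0.68 and 2.23 ± 0.58 with the own bait, and their values with the other baits were 1.51 ± 0.76 and 2.24 ± 0.78, of which the last passed as well (edgeR adjusted p = 0.0423).

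On chromosome 7 the NPC pools under APH stood highest in the bins from 98.5 and 98.75 Mb. The second of these had 83.3 and 78.4 junctions per 10000 in NPC under APH, 15.6 and 5.59 in NPC under DMSO, 21.0 and 11.9 in ESC under APH and 0 and 12.6 in ESC under DMSO. APH raised it by 2.56 ± 0.64 on the log2 scale (SE; edgeR adjusted p = 0.00766), and its value with the other baits was 1.66 ± 0.71. The first had 86.9 and 111 per 10000 in NPC under APH, 22.9 and 3.72 in NPC under DMSO, 16.3 and 5.09 in ESC under APH and 5.98 and 10.1 in ESC under DMSO. The bins from 67 and 104 Mb rose by 2.40 ± 0.63 and 2.02 ± 0.60, with values of 0.49 ± 0.60 and 0.05 ± 0.51 for the other baits. In the first of these, 1 ESC pool under DMSO, with 40.4 per 10000, lay above both NPC pools under APH, with 18.8 and 19.9. Whether the APH effect itself differed between own and other baits was tested in the same fit. It differed in 0 bins on each chromosome with edgeR and 0 with DESeq2, with 10, 2 and 2 bins under 0.05 in edgeR before adjustment.

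Comparing NPC with ESC bin by bin depended on how the pools were scaled. Scaled to the 17 other chromosomes, 2 of 121 bins of chromosome 7 were higher and 8 lower in NPC, 1 of 57 of chromosome 12 higher and 0 lower (4 lower unadjusted, 0 with DESeq2), and 1 of 73 of chromosome 15 higher and 9 lower (edgeR adjusted p under 0.05). Of the 138 bins elsewhere that passed the same filter, 7.25% were higher and 7.25% lower with bait 7. With bait 12 it was 5.8 and 0%, and with bait 15 it was 12.3 and 21%. With TMM normalization the counts higher and lower were 40 and 1, 8 and 0, and 16 and 0, and with DESeq2 size factors 7 and 2, 4 and 0, and 9 and 0. TMM moved the median log2 difference of all tested bins by 1.31, 0.38 and 1.17. Without line 1 and without line 2, 0 bins were lower, and without line 2 bait 15 it was 11 on chromosome 7 and 0 on chromosome 15. Directions between the cell types therefore hold only relative to the scaling, unlike the side shares above.

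Of the 3 chromosome 7 bins with the smallest p, 1 passed under all of these scalings. That bin, from 106.5 Mb, with the pool values given above, was lower in NPC by -2.70 ± 0.54 (SE; edgeR adjusted p = 6.06e-05), by -1.29 with TMM (adjusted p = 0.0468) and by -1.87 with DESeq2 (0.00907). The bin from 35.75 Mb was lower by -2.62 ± 0.53, and its value was -1.22 with TMM (adjusted p = 0.0675). The bin from 64.5 Mb, on the same centromeric side, was lower by -2.40 ± 0.53, and its value was -1.04 with TMM (0.124). On chromosome 15 the bins from 94.5 and 98.5 Mb, on the telomeric side, were lower by -1.64 ± 0.50 and -1.58 ± 0.50, and their values were -0.43 and -0.37 with TMM (adjusted p = 0.543 and 0.613). Of the 9 chromosome 15 bins lower in NPC, all but the bin from 31.5 Mb lay on the telomeric side, and of the 8 on chromosome 7, all but the bin from 106.5 Mb lay on the centromeric side. The chromosome 7 bin from 98.5 Mb was higher in NPC by 2.19 ± 0.66 (adjusted p = 0.0191), by 3.50 with TMM and by 2.78 with DESeq2, where it also passed (0.0237).

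In the bins of chromosomes 12 and 15 that were higher in NPC, junctions were packed into a short stretch. In the bin chr15:10250001-10500000, the own bait gave 35.3 and 40.2 junctions per 10000 in NPC under APH, 51.5 and 39.7 in NPC under DMSO, 2.47 and 6.70 in ESC under APH and 11.4 and 21.1 in ESC under DMSO. The log2 difference, NPC minus ESC, was 2.20 ± 0.56 (SE; edgeR adjusted p = 0.00168), and 3.44 with TMM. Of its 819 own-bait junctions, 502 lay in a single 1 kb stretch (chr15:10478001-10479000), 494 of them in NPC and 8 in ESC, at 110 positions. The other baits gave 0 junctions in that stretch. The chromosome 12 bin from 112.25 Mb, 99.4 Mb from the break, was higher by 2.84 ± 0.66 (edgeR adjusted p = 0.00306). In it 86 of 171 own-bait junctions lay in 1 kb, all 86 in NPC. The other baits gave 0 junctions in that stretch and 49 in the whole bin. Of the 2 chromosome 7 bins higher in NPC, the bin from 17.25 Mb was alike. It was higher by 2.05 ± 0.69 (edgeR adjusted p = 0.0433). There 53 of 116 own-bait junctions lay in 1 kb, all 53 in NPC. The bin from 98.5 Mb was not packed in this way, with 1.47% in its fullest 1 kb.

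Such narrow stretches were rare. Among bins with at least 50 own-bait junctions, 1 kb held 20% or more in 6 of 155 on chromosome 7, 1 of 99 on chromosome 12 and 4 of 263 on chromosome 15, and the median share of the fullest 1 kb was 5.36, 5.26 and 5.93%. Those on chromosome 15 from 25.25 and 51.75 Mb held 40 of 162 and 89 of 245 own-bait junctions, with 1 and 0 from the other baits. On chromosome 7 the stretches in the bins from 17.25, 101, 135.25 and 147.25 Mb held 53, 17, 38 and 59 own-bait junctions, with 0, 0, 1 and 0 from the others. The remaining 3 were shared between baits. The stretches in the bins from 97.5 and 137.5 Mb of chromosome 7 and from 74.75 Mb of chromosome 15 held 23, 33 and 60 junctions of the own bait and 79, 119 and 145 of the others. Across all members, the number of distinct positions and strands, counted within pools, was 92.2, 91.9 and 92.0% of the number of own-bait junctions on chromosomes 7, 12 and 15.

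Orientation is read from the strand of the prey. On a single side of a break, the share of plus-strand prey did not differ between own and other baits past the adjusted threshold. The largest mean differences were 7.27 ± 7.97 points on the centromeric side of chromosome 12 (54.3% with the own bait and 47.0% with the others, 6 of 8 higher) and -5.04 ± 4.84 points on the telomeric side of chromosome 7 (47.8 and 52.8%, 7 of 8 lower). The exact permutation test gave p = 0.0469 and 0.0391, and 0.141 adjusted over 6 sides for both. In both cases prey that ran toward the break were the more common with the own bait. The centromeric side of chromosome 7 went the other way, by -3.10 ± 4.14 points (6 of 8 lower, exact test, p = 0.0859, adjusted 0.172). The mean was -0.39 points on the telomeric side of chromosome 12 and 1.45 on the centromeric side of chromosome 15, both toward the break. On the telomeric side of chromosome 15 it was 1.37, away from the break.

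The sides were then joined by orientation relative to the break, a measure chosen after the single sides had been seen. The joined share also depends on how junctions divide between the sides, which differed between NPC and ESC. The parts of side and orientation were not separated. In NPC under APH, the prey ran toward the break in 53.5 to 56.9% of far own-bait junctions, a mean of 55.1%, against 49.6% with the other baits. The difference was 5.51 ± 1.89 points, above 0 in 6 of 6 combinations (SD; exact permutation test, p = 0.0312, adjusted 0.0625). In NPC under DMSO the means were 52.2 and 49.2%, a difference of 3.01 ± 2.62 points, above 0 in 6 of 6 (same p values). In ESC under APH they were 49.0 and 48.7% (0.30 ± 2.78 points, 3 of 6), and in ESC under DMSO 47.8 and 51.0% (-3.18 ± 3.20 points, 1 of 6 above 0; exact test, p = 0.0938). With the own bait, NPC exceeded ESC by 6.11 ± 3.13 points under APH and by 4.34 ± 3.25 points under DMSO, in all 6 combinations each (exact test, p = 0.0312 and adjusted 0.0521 for each, so neither passed at 0.05). APH exceeded DMSO in 6 of 6 NPC combinations by 2.94 ± 1.58 points (adjusted p = 0.0521) and in 4 of 6 ESC ones by 1.17 ± 2.26 points (p = 0.25, exact test).

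**Figure D5:**
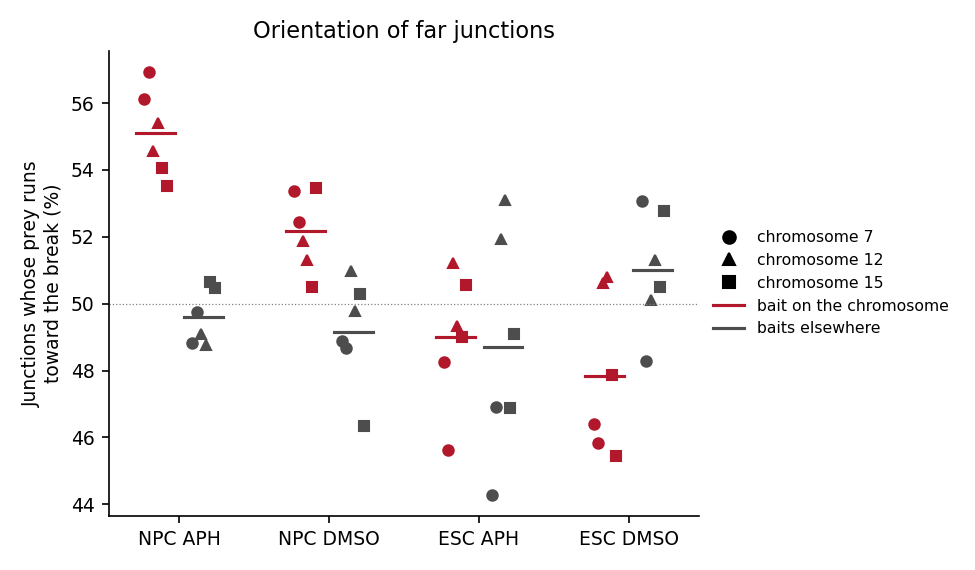
Share of junctions more than 5 Mb from the break whose prey runs toward it (%), for the own bait (red) and the other baits (grey); each point is 1 line and chromosome, bars are means of 6, and the axis does not start at 0. In NPC under APH every own-bait value (53.5 to 56.9%) lies above every value of the other baits.

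Single regions showed the orientation to different degrees. In the chromosome 7 bin from 98.5 Mb, 316 of 408 own-bait junctions were on the minus strand, that is toward the break, or 78.8% of 392 in NPC and 43.8% of 16 in ESC. In the bin from 64.5 Mb, on the other side of that break, 98 of 134 were on the plus strand, also toward the break, or 74.6% of 63 in NPC and 71.8% of 71 in ESC. In the chromosome 15 bin from 72.75 Mb, 409 of 559 ran toward the break. The chromosome 12 bin from 42.75 Mb went the opposite way, with 61 of 171 toward the break.

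The joins themselves differed slightly between own and other baits, averaged over both cell types and both treatments. Matching bases were counted only in junctions without inserted bases. Among these, far own-bait junctions had a mean of 2.93 matching bases between bait and prey, against 3.11 with the other baits. The mean was lower in 6 of 6 line and bait combinations, by -0.18 ± 0.07 bases (SD, exact permutation test, p = 0.0312, adjusted 0.0469). Inserted bases were present in 19.2% of own-bait junctions and 23.0% of those of the other baits, lower in 6 of 6 by -3.83 ± 3.18 points (exact test, same p values). Split by cell type, a split made after the data were seen, the mean differences were unequal. Inserted bases differed by -1.49 ± 2.34 points in NPC (8 of 12 combinations of line, bait and treatment lower) and -6.17 ± 5.41 points in ESC (12 of 12 lower), and matching bases by -0.08 ± 0.12 in NPC (8 of 12 lower) and -0.27 ± 0.22 in ESC (11 of 12 lower; SD). Whether the cell types differ in this was not tested. Joins with neither made up 6.45 and 7.03%, lower in 3 of 6 (exact test, p = 0.375). The bait ends compared come from different sequences, and the part this plays was not tested.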

How the data were processed

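Each row of the 24 deposited tables is 1 junction read (prey coordinate, strand, bait alignment and sequence), so all values start from raw junction counts, per the file headers. Reads were aligned with Bowtie2 to mm9, per the submitters' processing notes; the version and the program that called junctions are not given. Of 2037405 rows, 2 had no position and 18609 repeated a read name, which left 2018794 junctions. Letters of experiments matched the labels in 21 tables; the other 3 were used as pools, and 33961 rows without a letter in NPC line 2 bait 15 APH were kept. The break is the usual start of the bait alignment, so it can lie a bait length from the cut. No mm9 annotation was at hand, and no bin was assigned a gene.

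Bins and comparisons were chosen with earlier results of these data known. Rates are junctions per 1000 (or 10000 for single bins) junctions on the 17 chromosomes without a bait. Sign-flip tests ran over line and bait combinations, exact and two-sided. Bins were tested with edgeR 4.0.16 in R 4.3.3 (functions glmQLFit and glmQLFTest) on all 24 pools with those junctions as library size: own against other baits with 8 blocks of line, cell type and treatment, and APH and NPC effects per bait with 12 blocks. filterByExpr (minimum count 5, 4 groups of cell type and treatment) kept 389 of 10147 bins. These groups, the 17 chromosomes as background and a limit of 20 matching bases were set at the time of fitting. SE is the fold change divided by the root of F. The blocks of the APH and NPC fits pair pools of the same line and bait: over bins elsewhere, APH and DMSO deviations correlated at 0.298 to 0.716 and NPC and ESC ones at 0.0188 to 0.533, 12 pairs each. The parts of line and bait in these correlations were not separated. DESeq2 1.42.0 was an alternative, with size factors from positive counts. Named bins were, per chromosome, the 4 with the smallest p among those higher with the own bait, 2 among those lower (none), 3 each for APH and NPC, and the 2 with most own-bait junctions; others named were chosen for narrow stretches or extremes after their values were seen. The fits were also run on data simulated from their own fitted means and dispersions, with known changes put in. Such data cannot show how well the model suits these pools. Reads carried no molecular identifiers, so repeated molecules may remain.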

Additional observations from a re-analysis of the deposited data

Results flagged for a closer look

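The share of far own-bait junctions whose prey ran toward the break was set apart for a closer look because the exact permutation test of the difference between the cell types gave p = 0.0312 before adjustment. After adjustment neither treatment passed at 0.05. It was higher in NPC than in ESC by 6.11 points under APH (55.1 and 49.0%) and by 4.34 points under DMSO (52.2 and 47.8%), in 6 of 6 line and bait combinations each (exact permutation test, adjusted p = 0.0521 for each). The DMSO difference had p = 0.0625 with each position counted once and 0.0938 with 10 Mb excluded (exact test). The measure was chosen after the strand shares of single sides had been seen. It joins both sides of a break, and the split of junctions between sides also differed between the cell types. The parts of side and orientation were not separated. ESC pools held 555 to 2026 far own-bait junctions each and NPC pools 1826 to 11001, so single ESC shares carry the larger counting error. A look for single values far from the rest of their group covered 15 groups of 6 or 8 values and found none.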

How the results depend on the processing

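Of 158 single-value results under settings that kept all pools, 156 kept their direction and their side of the threshold. The exceptions were close to 0: NPC minus ESC in the log2 ratio under DMSO was -0.0046 with 10 Mb excluded, and the orientation difference in ESC under APH was -0.30 points with each position and strand counted once. Leaving out a line, or line 2 bait 15 (added after the data were seen), left too few values per condition to reach p under 0.05. The same held for every chromosome without a whole line, and for chromosome 15 without line 2 bait 15. Log2 ratios then ranged from 2.21 to 2.37 in NPC under APH, 1.88 to 2.04 in NPC under DMSO, 2.12 to 2.18 in ESC under APH and 1.87 to 2.04 in ESC under DMSO, and from 2.29 to 2.43, 1.91 to 2.08 and 1.86 to 1.96 on chromosomes 7, 12 and 15. Slopes ranged from -0.54 to -0.47 in NPC under APH, -0.60 to -0.49 in ESC under APH and -0.49 to -0.34 in ESC under DMSO, matching bases from -0.20 to -0.16 and inserted bases from -5.05 to -2.60 points. Values that changed sign were NPC minus ESC in the ratio under DMSO (-0.0062 to 0.0057) and in the slope under APH (-0.031 to 0.11), and the orientation in ESC under APH (-1.20 to 1.80 points). In these single values, leaving out line 2 bait 15 dropped only its values for chromosome 15. Its pools stayed among the other baits of chromosomes 7 and 12.

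TMM moved the median log2 fold of all tested bins by -0.51, 0.43 and 0.12 for baits 7, 12 and 15 and by 0.07, -0.33 and -0.14 for APH. Counts of bins moved more; the cause was not tested unless the setting itself changes how many bins are tested. Bins higher with the own bait were 391, 298 and 267 on chromosomes 7, 12 and 15 with no filter, 134 on chromosome 12 in 500 kb bins, 21 there with each position once, and 40 on chromosome 15 with 10 Mb excluded; on that chromosome leaving out pools gave 36 to 71. With TMM or DESeq2, 1 chromosome 7 bin was lower with the own bait. Bins higher with APH on chromosome 7 were 10 with each position once, 10 with TMM, 0 with no filter and 0 with DESeq2, and 0 to 13 with pools left out. On chromosome 12 they were 11 in 500 kb bins, 2 with no filter, 3 with DESeq2 and 0 to 11 with pools left out, and on chromosome 15, 0 to 1. With no replicate block these APH counts were 0 on chromosome 7 and 2 on chromosome 12, and bins higher in NPC were 1 and 0 there, with 5 lower on chromosome 15.

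Bins higher in NPC on chromosome 7 were 5 with each position once, 1 with 10 Mb excluded, 40 with TMM, 0 with no filter, 7 with DESeq2 and 0 to 3 with pools left out. Bins lower in NPC there were 5 with 10 Mb excluded, 1 with TMM, 3 with no filter, 2 with DESeq2 and 0 to 11 with pools left out. On chromosome 12, bins higher in NPC were 2 with each position once, 3 in 500 kb bins, 8 with TMM, 0 with no filter, 4 with DESeq2 and 0 to 1 with pools left out. On chromosome 15 they were 3 in 500 kb bins, 16 with TMM, 9 with DESeq2, 2 without the rows lacking a letter and 0 to 1 with pools left out, and bins lower were 5 with 10 Mb excluded, 5 in 500 kb bins, 0 with TMM, 0 with no filter, 0 with DESeq2 and 0 with pools left out. ESC pools held 3343 to 10091 junctions elsewhere, which limits what single bins can show.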
